A study of Mus musculus with 2 samples.

Results

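The alpha- and beta-globin gene clusters were examined for binding of CTCF in mouse embryonic stem cells. The clusters were taken as a 350 kb window on chromosome 11 (mm10 chr11:32100000-32450000) and a 300 kb window on chromosome 7 (mm10 chr7:103700000-104000000). Every peak of the authors' conservative set whose summit fell in either window was used. These were 27 of the 43344 conservative peaks on the autosomes and X, 23 around the alpha-globin genes and 4 around the beta-globin genes. The 8 genes named for the clusters were Hba-x, Hba-a1, Hba-a2 and Nprl3 on chromosome 11 and Hbb-bt, Hbb-bs, Hbb-bh1 and Hbb-y on chromosome 7.

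The samples were 2 ChIP-seq libraries, biological replicates 1 and 2 of a single group, made with an antibody to CTCF. Per the labels, both came from E14TG2a.4, a male embryonic stem cell line of strain 129/Ola, and no other genotype or treatment is named. The labels name 1 donor for both, so the spread between libraries is not a spread between animals. There is no second condition, so the comparisons are between replicates, between the 2 clusters and with the rest of the genome. The sequencing depth is unknown because no read counts are given, and a binding assay gives no RNA markers against which to check the cell type.

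CTCF is a zinc finger protein that binds a long, directional DNA motif and halts cohesin as it extrudes loops, so that bound sites often mark the ends of loops and the borders of domains. Each globin cluster is driven in red blood cell precursors by distant enhancers. Those of the alpha cluster lie mostly in introns of Nprl3, which encodes a subunit of the GATOR1 complex that restrains mTORC1, and those of the beta cluster form the locus control region (LCR) upstream of Hbb-y. Embryonic stem cells are not erythroid, and globin genes are not known for activity in them. Sites known to bind CTCF in erythroid cells flank both clusters, among them HS-38 and HS-39 at the alpha genes, 3'HS1 beyond the adult beta genes, and HS-62 and HS-85 upstream of the LCR; the numbers give approximate distances in kb.

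Summits are numbered along each chromosome, alpha 1 to 23 and beta 1 to 4. Their distances are counted from the start of Hba-x or of Hbb-y, the embryonic gene nearest the enhancers, positive in the direction of transcription. The sequences below are those of the flanking and promoter sites on which the comparison of the 2 clusters turns, in mm9, written 5′ to 3′ in the orientation of the motif. Capitals mark the 19 bases that scored highest against a CTCF motif learned from the strongest mm9 peaks on chromosomes other than 7, 11 and 18, whose most frequent bases were TGGCCACCAGGGGGCGCTA.
Alpha 14, inside Nprl3, HS-39, plus strand: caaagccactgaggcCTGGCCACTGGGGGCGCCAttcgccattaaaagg
Alpha 15, inside Nprl3, HS-38, minus strand: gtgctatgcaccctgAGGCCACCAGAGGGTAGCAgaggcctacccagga
Alpha 17, Hbq1b, and alpha 18, Hbq1a, minus strand: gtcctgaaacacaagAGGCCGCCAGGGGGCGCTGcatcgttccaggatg
Alpha 19, beyond Hbq1a, minus strand: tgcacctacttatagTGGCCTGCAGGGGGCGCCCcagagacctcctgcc
Beta 1, beyond Hbb-bt, 3'HS1 side, minus strand: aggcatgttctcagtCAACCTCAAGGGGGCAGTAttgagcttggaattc
Beta 2, upstream of Hbb-y, LCR side, minus strand: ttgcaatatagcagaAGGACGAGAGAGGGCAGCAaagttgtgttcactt
Beta 3, near Olfr631, minus strand: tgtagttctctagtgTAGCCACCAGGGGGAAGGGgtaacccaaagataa
Beta 4, near Olfr633, minus strand: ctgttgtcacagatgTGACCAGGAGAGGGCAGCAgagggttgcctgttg
The motif scored 20.5 bits at alpha 15, 20.9 at alpha 17 and 18, 21.5 at alpha 19, 17.8 at beta 1, 16.98 at beta 3 and 20.5 at beta 4. It was called at these 7 summits, the threshold being 16.3 bits, the score that 1% of windows beside peaks reached. The best match within 150 bp of the summit scored 5.79 bits at alpha 14 and 10.1 bits at beta 2, and was not called at either. Elsewhere in the mm9 peak of alpha 14 a match scored 12.5 bits, also below the threshold. Matches were scored without gaps.

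The alpha-globin window carried many CTCF summits, and the beta-globin window a number common for its length. The alpha window held 6.57 summits per 100 kb, against 2.66 over chromosome 11, and the beta window 1.33, against 2.01 over chromosome 7. Of 7325 windows of 350 kb on the autosomes and X, 2.18% held at least 23 summits, and the median window held 4. On chromosome 11, where the median window held 9, the share was 7.37% of 339. Of 8558 windows of 300 kb, 57.7% held 4 summits or fewer, so the count at the beta genes lay near the middle of the genome, and 18.7% of these windows held none. On chromosome 7 the median window held 4, the same as the beta window, and 51.3% of 474 held 4 or fewer.

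**Figure D1:**
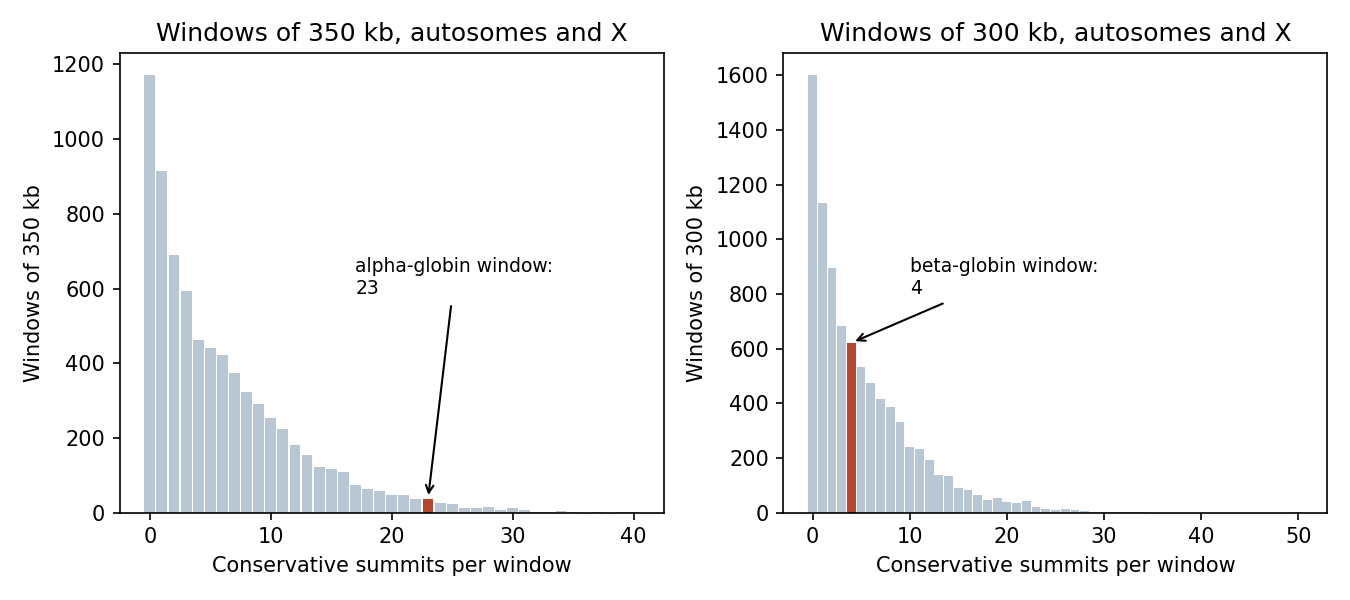
Number of conservative CTCF summits (horizontal axis) in windows of 350 kb (left) and 300 kb (right) along the autosomes and X; the bars count windows. The red bars mark the windows with the same count as the alpha-globin window (23), out in the right tail, and the beta-globin window (4), among the common counts.

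The difference between the clusters was present in each library. Taking from each replicate list its strongest entries, as many as the conservative set holds, gave 26 summits in the alpha window and 3 in the beta window for replicate 1, and 22 and 3 for replicate 2. The alpha window thus exceeded the beta window by 6.43 summits per 100 kb in replicate 1 and by 5.29 in replicate 2 (mean 5.86 ± 0.808, SD, n = 2). In the conservative set the difference was 5.24 per 100 kb, a ratio of 4.93. An exact two-sided sign-flip permutation test over the 2 libraries gave p = 0.5, which is the smallest p that 2 libraries allow.

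Signal, the peak height on a scale the authors do not state, had a higher median at the alpha genes in the conservative set, but not in every set of peaks. The median was 106.2 in the alpha window (18.5 to 196.4), 51.7 in the beta window (17.1 to 96.9) and 77.2 over the conservative set, whose quartiles were 41.4 and 124.8. In the alpha window 12 of 23 summits exceeded the median of the set, about the share that any median gives, and in the beta window 1 of 4 did. The alpha median of 106.2 was the lowest of those 12, and the next summit down had 72.0. Relative signal was then computed for each replicate, with the median of that replicate at the conservative peaks set to 1. The median relative signal of the alpha summits was 1.31 in replicate 1 and 1.48 in replicate 2 (1.39 ± 0.115, SD, n = 2). That of the beta summits was 0.624 and 0.671 (0.647 ± 0.0334, SD, n = 2). The order of the clusters rested on the choice of peaks. Among the strongest entries of replicate 1 alone the alpha median was below the beta median, at 0.814 and 0.891 times the median of that list, while in replicate 2 alone they were 1.53 and 0.863. In the optimal set they were 0.955 and 0.898.

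The 2 replicates placed nearly all of these summits alike. The authors made the conservative set from both replicates, so this agreement follows largely from that choice and is not an independent check. An entry lay within 100 bp in both replicate lists for 26 of 27 summits (96.3%, exact Clopper-Pearson 95% interval 81.0 to 99.9%), close to the 95.5% of all conservative peaks. The median ratio between the replicates' relative signals was 1.15, against 1.21 over the set. It passed 1.5-fold at 17.4% of all conservative peaks and at 1 of these summits, alpha 6 in the transcribed locus Gm40823, with relative signals of 0.455 and 0.902. The summit without an entry was alpha 13, at 1158 bp from the start of Rhbdf1, for which the nearest entry of replicate 1 lay beyond 100 bp.

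**Figure D2:**
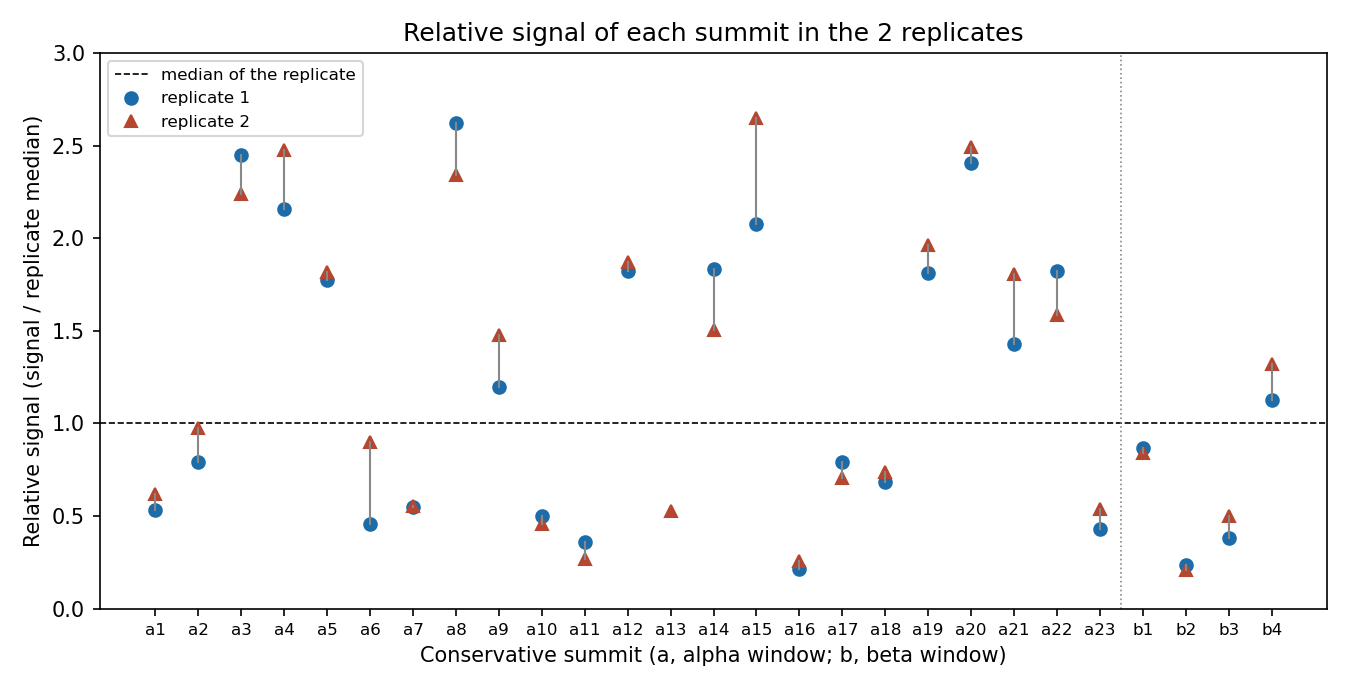
Relative signal (signal divided by the median of the replicate, vertical axis) at each of the 27 summits, for replicate 1 (circles) and replicate 2 (triangles); grey lines join the replicates and the dashed line is the median. The ratio between replicates is widest at alpha 6 (0.455 and 0.902), while the distance between the values is widest at alpha 15 (2.08 and 2.65). Alpha 13 has no value in replicate 1. Beta 4 is the only beta summit above the dashed line.

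Within the alpha window the summits fell into 4 stretches. Beyond the 3′ end of Nprl3, which is transcribed away from the globin genes, and towards Il9r, the receptor of interleukin 9, and Rhbdf1, which encodes an inactive rhomboid protein, lay 13 summits with signals from 26.6 to 196.4 and a median of 72.0. Inside Nprl3 lay 3, with signals of 131.9, 185.5 and 18.5. At the globin genes lay 2, with signals of 57.0 and 56.3, and beyond Hbq1a, towards the adaptor gene Sh3pxd2b, 5 with signals from 38.8 to 193.5 and a median of 133.1. By mm10 signal the 2 summits at the globin genes were thus weaker than the medians on either side and than the stronger 2 inside Nprl3. In the deposited mm9 list of both replicates their fold enrichments were 16.2 and 16.5. These lay on either side of 16.32, the median of the 22 mm9 peaks of the alpha window. The mm9 peaks of the 2 sites thus did not stand out as weak among the 22, though those of alpha 14 and alpha 15 were higher. The mm9 peak of alpha 17 also held another called motif, at 9.45 kb from the Hba-x start.

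**Figure D3:**
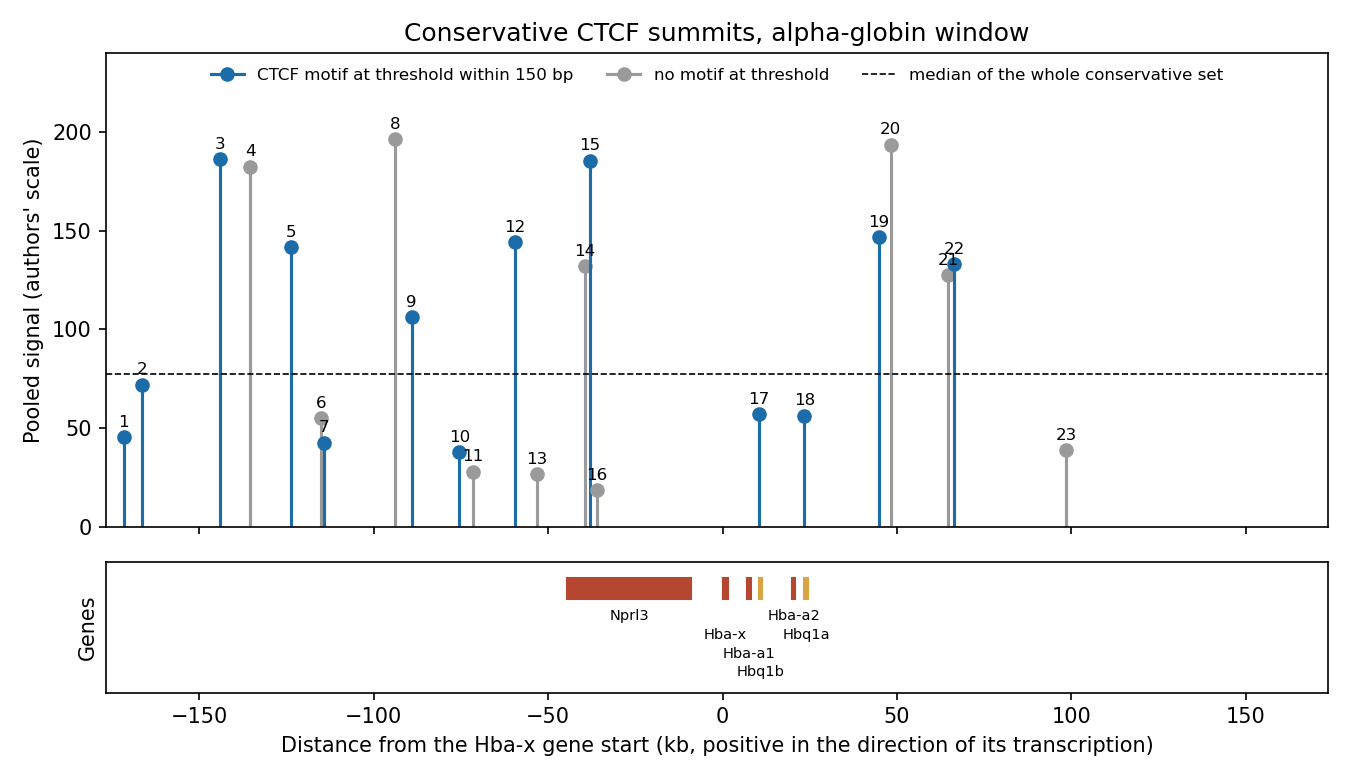
Pooled signal (vertical axis, authors' scale) of the 23 conservative summits against distance from the start of Hba-x in kb (top), and the genes of the cluster (bottom; red, the 4 named genes, gold, Hbq1a and Hbq1b). Strong summits stand on both sides of the genes, 2 summits of 57.0 and 56.3 stand among them, and blue marks the 13 summits with a called motif.

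The strongest summit of the window by pooled signal was alpha 8, at -93.9 kb from the Hba-x start and 4843 bp from Il9r (mm10 chr11:32182594-32182809), with a signal of 107.0 in replicate 1, the highest there, and 88.9 in replicate 2, where alpha 15, alpha 20 and alpha 4 were higher. Of the conservative set, 95.2% of peaks had a lower signal. Alpha 20, at 48.3 kb beyond the Hba-x start and between genes, followed by pooled signal, with 98.1 and 94.7. The relative signals were 2.62 and 2.34 at alpha 8 and 2.40 and 2.49 at alpha 20. Neither carried a called motif, the best scores being 15.9 and 12.7 bits, the first just short of the threshold of 16.3. Both passed 10.3 bits, the score that 5% of windows beside peaks reached.

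The other summits beyond the 3′ end of Nprl3 were a mixture of strong and weak. Alpha 3, in the transcribed locus Gm39676, had a signal of 99.9 in replicate 1 and 85.01 in replicate 2, alpha 4 had 88.1 and 94.1, and alpha 5 had 72.3 and 68.99. Alpha 12, inside Rhbdf1, had 74.3 and 71.1, and alpha 9, 75 bp from Il9r, 48.7 and 56.1. These 5 exceeded the median of each replicate, with relative signals of 1.19 or more. Alpha 1, 2, 6 and 7 had 18.6 to 32.4 in replicate 1 and 21.1 to 37.0 in replicate 2, below the median of each. The summits nearest to gene starts were also weak. Alpha 10, at 891 bp from the Il9r start, had 20.3 and 17.4, and alpha 11, at 286 bp from the start of Snrnp25, which encodes a protein of the minor spliceosome, 14.7 and 10.2. Alpha 13, near the Rhbdf1 start, had 20.02 in replicate 2.

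The pair inside Nprl3 lay at the distances known for HS-39 and HS-38. Alpha 14 (mm10 chr11:32237091-32237300) stood 39.38 kb upstream of Hba-x, 0.38 kb from the stated distance, with a signal of 74.7 in replicate 1 and 57.2 in replicate 2. Alpha 15 (mm10 chr11:32238567-32238787) stood 37.93 kb upstream, 0.074 kb from the stated distance, with 84.8 and 100.6. Alpha 14 was the higher of the pair in neither replicate, and 78.1% of the conservative set lay below it against 93.5% for alpha 15. In GENCODE the motif of alpha 15 lay in an intron of Nprl3. The best match within 150 bp of the alpha 14 summit lay in an exon of an Nprl3 transcript without coding sequence there. The third summit inside the gene, alpha 16 at 36.05 kb upstream, had signals of 8.63 and 9.79, was the weakest of the window and was not in the optimal set.

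From alpha 16 to the first globin promoter site no conservative summit lay over 46.4 kb, a stretch that holds the rest of Nprl3, Hba-x and Hba-a1. Hba-x encodes the embryonic zeta chain, and Hba-a1 and Hba-a2 the adult alpha chains. Gaps of that length or more made up 29.4% of the 43324 gaps between neighbouring summits, whose median was 21.0 kb. The replicate lists, which also hold background, had 10 entries each there, with a highest signal of 11.8 in replicate 1 and 10.001 in replicate 2. Around the known distance of HS-29 no conservative summit lay within 7.05 kb. Replicate 1 had 1 entry within 1 kb of it, with a signal of 9.25, and replicate 2 had none.

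The 2 summits among the alpha genes were at the promoters of the theta-globin genes Hbq1b and Hbq1a, which lie downstream of Hba-a1 and Hba-a2 in the 2 copies of a duplicated unit. Alpha 17 (mm10 chr11:32286806-32287121) had its summit 0 bp from the Hbq1b start, with a signal of 32.3 in replicate 1 and 26.8 in replicate 2. The matched entry of replicate 1 had its summit 87 bp from that place, and the entry of replicate 2 had it 0 bp away. Alpha 18 (mm10 chr11:32299879-32300194) had its summit 32 bp from the Hbq1a start, with 27.8 and 28.0. Replicate 1 had the higher signal at Hbq1b and replicate 2 at Hbq1a, so the order of the pair differed between replicates. The relative signals were 0.749 ± 0.0603 and 0.709 ± 0.0388 (SD, n = 2).

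Both promoters carry the same motif at the same place. The last 100 bases before each gene start in RefSeq (GRCm38.p6, plus strand, chr11:32286864-32286963 and chr11:32299969-32300068) were identical, and are shown once, with the 19 bases of the motif, here read from the strand of the gene, in capitals.
Hbq1b and Hbq1a: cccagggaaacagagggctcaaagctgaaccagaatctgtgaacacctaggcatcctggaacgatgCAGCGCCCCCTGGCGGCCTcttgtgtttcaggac
The motif began 34 bases before the gene start, on the minus strand, opposite to the direction of transcription, and its centre lay 25 bp from the summit of alpha 17 and 7 bp from that of alpha 18. Of the 300 bases of promoter in RefSeq (250 before to 50 after the start), 286 were the same in both genes. The learned motif, searched on both strands at 16.3 bits, was found in 604 of 32619 RefSeq promoters of that length (1.85%).

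The 2 theta sites stood differently in the mm10 and the mm9 lists. In the conservative mm10 set 37.0% and 36.5% of peaks had a lower signal than alpha 17 and alpha 18. In the deposited mm9 list of both replicates, the same sites had fold enrichments of 16.2 and 16.5, with 71.6% and 73.0% of peaks lower. The mm9 fold was 18.2 and 18.2 in replicate 1, and 18.6 and 19.4 in replicate 2. For the other 19 summits that were the only conservative summit in an mm9 peak, the mm9 share less the mm10 share ran from -12.5 to 6.82 percentage points. For the theta sites it was 34.6 and 36.5. The mm9 peak of alpha 17 was 1836 bp wide and also held a second motif, described below. Its fold enrichment need not be that of the Hbq1b motif alone. The lists differ in length and in unit, so a share is a standing within a list and not a change. In mm9 the 2 motifs lie in identical runs of 105 bases, so that reads lying wholly within a run could not be assigned to either copy, and how each set of alignments placed such reads is not stated; its part in the difference was not tested.

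**Figure D4:**
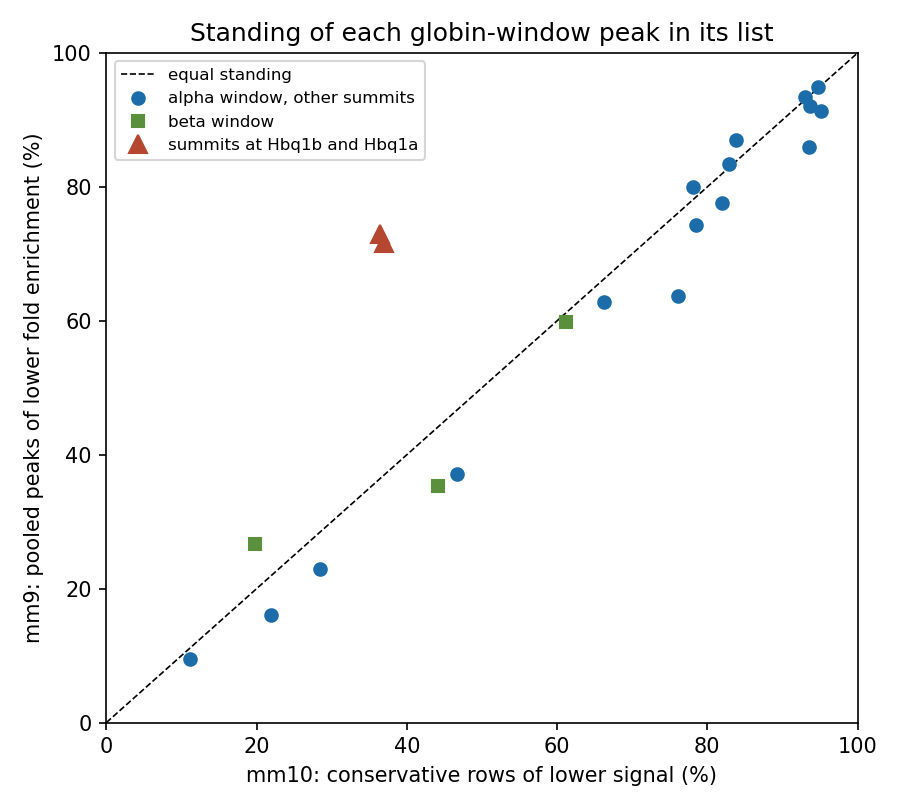
Share of the conservative mm10 peaks with a lower signal (horizontal axis, %) against the share of the pooled mm9 peaks with a lower fold enrichment (vertical axis, %). Shown are the 21 globin-window summits that were the only conservative summit in their mm9 peak. The points follow the dashed line of equal standing, from -12.5 to 6.82 percentage points off it, except the summits at Hbq1b and Hbq1a, which lie 34.6 and 36.5 points above it.

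A second motif of the duplicated unit lay on the other strand, upstream of each theta gene. At 9.45 and 22.5 kb beyond the Hba-x start the same 19 bases occurred on the plus strand, with a score of 18.9 bits, in identical runs of 175 bases. On mm10 the entry there had a signal of 8.37 in replicate 1 and 4.78 in replicate 2 at the first copy, and 14.6 and 7.67 at the second. The pooled signals were 15.9 and 24.4, and neither entry was in the conservative set. In mm9 the second copy lay in a peak apart from the Hbq1a motif, with a fold enrichment of 8.72 in the list of both replicates, 10.6 in replicate 1 and 8.0 in replicate 2. In the list of both replicates that peak also held another called motif on the plus strand, at 22.065 kb, with 16.7 bits. The first copy lay in the same 1836 bp peak as the Hbq1b motif in that list, and in a separate peak with a fold enrichment of 7.71 in replicate 2. Both replicates had a lower mm10 signal at both copies of the 18.9-bit motif than at the theta promoters.

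Beyond Hbq1a the alpha window held 4 of its strong summits in a row. Alpha 19 lay 44.8 kb beyond the Hba-x start and had a signal of 73.9 in replicate 1 and 74.6 in replicate 2. Alpha 20 lay 48.3 kb beyond it and was the second strongest of the window by pooled signal. Alpha 21 and alpha 22 lay 64.7 and 66.4 kb beyond it, between genes and 4736 bp or more from Sh3pxd2b, with signals of 58.4 and 68.7 and of 74.3 and 60.3. The next summit, alpha 23 inside Sh3pxd2b, was weaker in both replicates, with 17.5 and 20.5. From there to the end of the window no further summit was found, and the first summit beyond the window lay 0.327 kb past its end, with a pooled signal of 113.7.

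The beta-globin genes had no summit among them. The 40.7 kb from Hbb-bt to Hbb-y, which holds the adult genes Hbb-bt and Hbb-bs and the embryonic genes Hbb-bh1 and Hbb-y, lay in a gap of 66.2 kb between beta 1 and beta 2. Gaps of at least that length were 21.4% of all gaps. The highest signal in the gap was 7.55 among 6 entries of replicate 1, and 5.55 at the only entry of replicate 2. Within 2 kb of Hbb-bt and Hbb-bs neither replicate had an entry. At the alpha genes, the gene stretch of 24.3 kb held 2 summits.

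**Figure D5:**
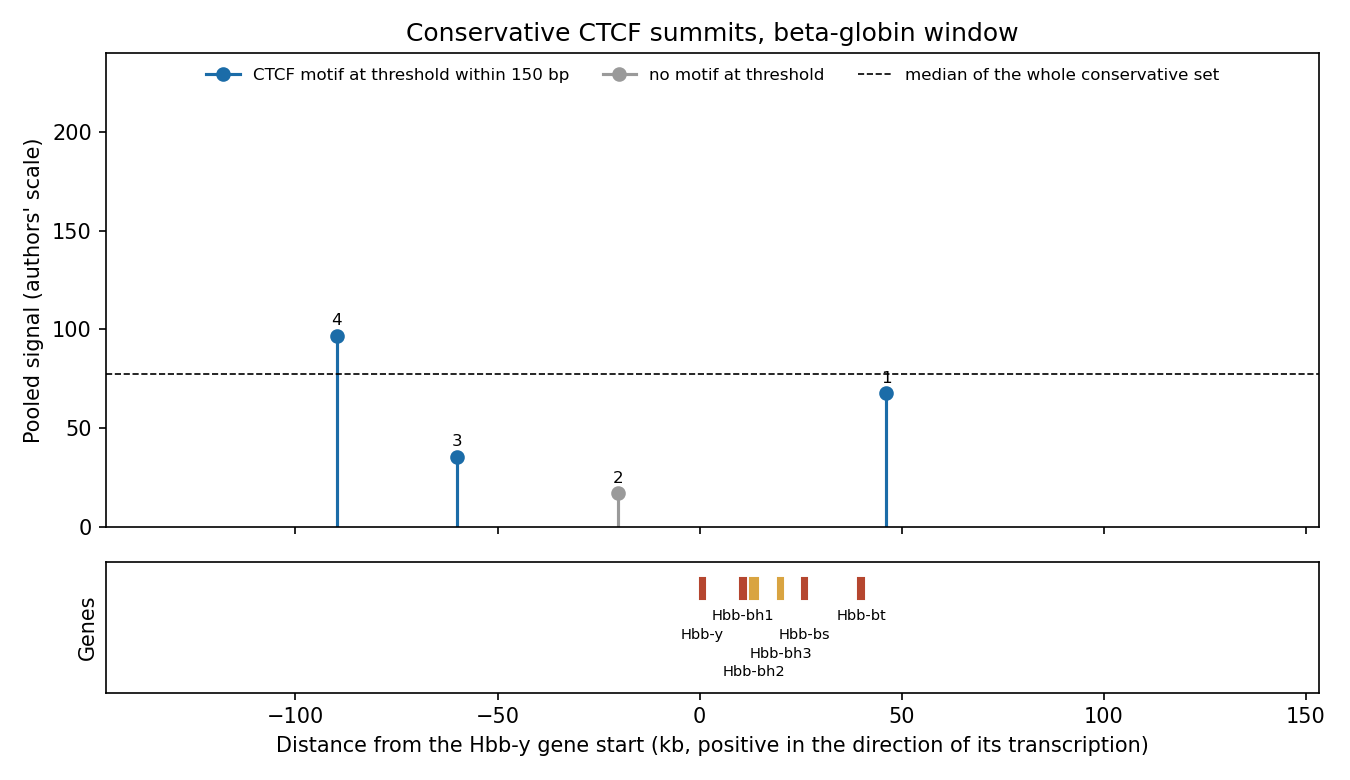
Pooled signal (vertical axis, authors' scale, the same range as in the alpha plot) of the 4 conservative summits against distance from the start of Hbb-y in kb (top), and the genes of the cluster (bottom; red, the 4 named genes, gold, Hbb-bh2 and Hbb-bh3). The summits lie outside the genes on both sides, and only beta 4, at 96.9, is above the dashed median of 77.2.

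Beta 1 was the flanking summit on the 3'HS1 side. It lay 5439 bp beyond Hbb-bt (mm10 chr7:103806927-103807242), with a signal of 35.4 in replicate 1 and 32.0 in replicate 2, and a relative signal of 0.854 ± 0.0185 (SD, n = 2). On its far side the next conservative summit was 687.5 kb away, and 0.81% of all gaps were as long. Beta 2, on the LCR side, lay 20.1 kb upstream of Hbb-y and 8943 bp from the start of the olfactory receptor gene Olfr66, with signals of 9.61 and 8.02. It was the weakest of the 27 by pooled signal and in replicate 2, though not in replicate 1, where alpha 16 had 8.63. It was not in the optimal set and had no mm9 peak.

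Beta 3 and beta 4 lay among the olfactory receptor genes that flank the cluster, which supply 14 of the 19 protein-coding genes of the window. Beta 3 stood 59.98 kb upstream of Hbb-y, 2.03 kb from the stated distance of HS-62, with a signal of 15.5 in replicate 1 and 19.03 in replicate 2. Beta 4 (mm10 chr7:103942893-103943013) stood 89.7 kb upstream, 4.74 kb from that of HS-85, with 46.0 and 50.1. Beta 4 was the strongest beta summit in both replicates, ahead of beta 1, beta 3 and beta 2 in that order in both. Beyond it the next summit was 257.0 kb away, and 4.05% of gaps were as long. The mm9 list of both replicates had peaks at beta 1, beta 3 and beta 4, with fold enrichments of 9.57, 8.16 and 13.9, against a list median of 12.0.

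The chromosome 7 reference carries the haplotype with Hbb-bs and Hbb-bt, whereas 129 strains are known for the diffuse haplotype with other adult beta genes. Reads of the 129/Ola line were therefore placed on another haplotype there, and its part in the beta values was not tested. Hbb-bh1 and Hbb-y are present in both.

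Of the 8 named genes, 3 had a conservative summit within 10 kb of their start, against 45.1% of 20915 protein-coding genes. These were Hba-a1 at 3292 bp, Hba-a2 at 3545 bp and Hbb-bt at 6838 bp, a share of 37.5% (exact Clopper-Pearson 95% interval 8.52 to 75.5%). Hba-x followed at 10364 bp, then Nprl3, counted from its own start, at 19257 bp, Hbb-y at 20091 bp, Hbb-bs at 20843 bp and Hbb-bh1 at 30136 bp. The median distance was 14.8 kb, against 12.1 kb over all genes. Among 11 genes of erythroid regulators, 8 had a summit within 10 kb, the strongest at Nfe2, Tal1 and Zfpm1, with signals of 209.1, 143.6 and 135.3. Among 9 genes of heme synthesis, 6 had one (95% interval 29.9 to 92.5%), the strongest at Ppox, Urod and Alas1, with 199.7, 128.8 and 61.0. Each of these intervals includes the 45.1% of all protein-coding genes. Gata1, Lmo2 and Bcl11a, and Alas2, Fech and Alad, had none.

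Called motifs were about as common in the mm9 peaks of these windows as in all mm9 peaks. Searched within 150 bp of the summit distance, a motif was called at 13 of 23 alpha summits and 3 of 4 beta summits. No share over all conservative summits is given here for that search. In the same search at 5 kb to either side, 0 of 54 windows reached the threshold, and the median best score was 4.02 bits against 17.7 at the summits. The threshold had been chosen so that few windows beside peaks reach it. The count of 0 therefore follows largely from that choice and is not an independent check of the motifs. In the mm9 list of both replicates, 14 of 25 peaks in the windows had a motif within 100 bp of the midpoint, where 54.2% of all 39349 peaks did. Counted anywhere in the peak, all 3 beta peaks and 15 of 22 alpha peaks had one, where 63.6% of all peaks did. In the alpha window, summits with a motif had a median signal of 106.2 and those without 91.2, and in the beta window 67.7 and, for beta 2 alone, 17.1.

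Minus-strand motifs were the more common at the summits of both clusters, among few sites. Of the 13 motifs at alpha summits, 5 lay on the plus strand and 8 on the minus strand. Along the chromosome, the motifs of alpha 15, 17, 18 and 19, which bracket the globin genes, were all on the minus strand, and that of alpha 12 in Rhbdf1 and of alpha 22 on the plus strand. Between alpha 15 and alpha 19, called plus-strand motifs at 9.45, 22.065 and 22.5 kb also lay in mm9 peaks, without a conservative summit of their own. All 3 motifs at beta summits were on the minus strand, which is the strand of the beta-globin genes, while the alpha-globin genes lie on the plus strand. The counts are too small for a comparison.

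Many copies of the motif were not in a peak. The alpha window in mm9 held 33 motif sites at threshold, 9.43 per 100 kb against 5.65 over chromosome 11, and 21 lay in a peak of the list of both replicates. The beta window held 6, 2.00 per 100 kb against 3.82 over chromosome 7, and 3 lay in a peak. Over both chromosomes 31.2% of 12707 sites did. At the beta genes the median score was 18.9 bits outside peaks and 17.8 inside, and at the alpha genes 18.6 outside and 19.6 inside. The highest score outside a peak was 21.8 bits, in an intron of Sh3pxd2b at 75.1 kb beyond the Hba-x start.

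Most entries of the lists in the windows were not in the conservative set. It took 23.7% of the pooled mm10 entries in the alpha window and 21.1% in the beta window, against 14.5% over the genome. Signal alone did not set the border. In the alpha window, entries of 31.8 at -126.5 kb and of 30.6 at 57.7 kb from the Hba-x start were left out, while alpha 16 at 18.5 was in. In the beta window the strongest entry left out had 12.5, at -21.5 kb from the Hbb-y start, and beta 2, the weakest taken, 17.1.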

How the data were processed

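Per the deposited descriptions, the authors made the mm10 lists, of peaks with background entries for IDR, from filtered alignments and a control. Each replicate and the pool has one, with a signal and a −log10 q value for each peak as deposited by the authors. The authors derived the conservative and optimal sets, which add a whole-number score; the mm9 broad peaks carry a deposited fold enrichment (a ratio) and a −log10 p. For aligner, caller and thresholds, the sources used here give no name or value. Values of peaks are the authors'.

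Here, peaks within 100 bp (summit to summit) were matched, windows of each length were laid end to end, and genes came from RefSeq (GRCm38.p6). mm9 sequence and annotation were NCBIM37 and GENCODE vM1. No coordinates were converted: mm9 windows and motifs were placed by distance from Hba-x and Hbb-y, whose RefSeq promoter sequences were each found once in mm9. The 19-base motif was fitted by expectation maximisation to 3000 peaks and, like matching, tested on simulated data. Named are all summits, the cluster genes, the genes nearest to summits and the known flanking sites. Members and lists were chosen with earlier results of these data known. Python 3.11.15, numpy 2.4.6, pandas 2.3.3, scipy 1.17.1, pysam 0.24.0 and matplotlib 3.10.9 were used. Hbb-bh0 was not analysed here. Without read counts depth is unknown, and intervals cover counting error only.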

Additional observations from a re-analysis of the deposited data

How the results depend on the processing

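Of the alternatives run, 19 values stayed near the reported one and 19 moved. The alpha window exceeded the beta window in summits per 100 kb in all 5 alternatives run for that difference, but in median signal not in all 5. With the globin genes and 50 kb either side, the alpha window held 9 summits and the beta window 2, and the median relative signals were 1.71 and 0.549. With the signal at or above the median of the set, the counts were 12 and 1, the medians 1.88 and 1.25, and the difference 3.10 per 100 kb. In the optimal set the medians were 0.955 and 0.898 and the difference 6.14. Leaving out each replicate gave 22 to 26 alpha summits, 3 beta summits, a difference of 5.29 to 6.43, 3 genes within 10 kb and 15 to 16 mm9 peaks with a motif. With replicate 1 left out the alpha and beta medians were 1.53 and 0.863, and with replicate 2 left out 0.814 and 0.891, which turns their order. Within 20 kb, 5 of the named genes had a summit. With the score of 0.1% of flanking windows, 8 mm9 peaks had a motif, and with that of 5%, 18 did. The cause was not tested, other than that narrower windows and stricter thresholds take fewer peaks. With 1 group, no replicate block between groups could be fitted. Depth could not be weighed, and with 2 libraries the exact sign-flip test cannot pass 0.05.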
